A study of Mus musculus with 13 samples.

Results

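The comparison described here set mice that skipped lunch against mice that skipped dinner, in epithelial cells of the jejunum, across all genes of the count table. It holds 5 of the 13 RNA-seq libraries of the series, 3 of lunch-skipping feeding (LSF) and 2 of dinner-skipping feeding (DSF), chosen by the group names that the table's columns and the labels share. LSF mice had food from ZT12 to ZT16 and again from ZT20 to ZT24, and DSF mice had food from ZT12 to ZT20, where ZT is zeitgeber time, the hours since lights on. Both groups thus had food for 8 h per day, for 2 weeks, and differed in whether a gap of 4 h split the meal time and in the hour of the last meal. Per the labels, the mice of the feeding experiment were kept in 1 shared environment and cage. Strain, sex, age, genotype and the hour of sampling are not given in the sources used here. The length of the fast before sampling is therefore unknown for both groups. Cells were sorted as EpCAM positive and negative for the blood cell antigens CD45, CD11b, CD3 and B220, and their poly(A) RNA was sequenced. The labels call the libraries biological replicates but do not say whether each came from 1 mouse, so the p-values below reflect library-to-library spread, which may be partly technical. The other libraries were 2 of breakfast-skipping feeding (BSF, food from ZT16 to ZT24), 3 of BSF_C and 3 of con, whose feeding times are not given in the sources used here. Their levels are set beside LSF and DSF as description only.

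As background, enterocytes of the jejunum digest and absorb sugars, peptides and fats, and they switch between building lipids after a meal and oxidising fatty acids in a fast. Insulin and SREBP factors drive the fed programme, while PPARA, CREB, FOXO factors and the glucocorticoid receptor drive genes of the fasted state such as Pck1 and Pdk4. The same cells carry a circadian clock, in which ARNTL and CLOCK act on E-box sequences, PER and CRY proteins repress them, and REV-ERB and ROR receptors set the level of Arntl. Meal times are known to shift this clock in the gut, and levels without a time course cannot separate its phase from its amplitude.

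Sequencing depth was alike in the 5 libraries, with 7592112 to 8385260 counts in LSF and 7339563 to 7463941 in DSF, and 16348 to 16620 genes had a count. Mitochondrially encoded genes took 10.1% of the LSF counts and 9.94% to 10.5% of the DSF counts. The first principal component of the 5 libraries held 47.2% of the variance, with the LSF libraries between 13.9 and 17.6 and the DSF libraries at -24.9 and -24.1. Over all 13 libraries the con libraries stood apart, at -122 to -117 on a first component of 77.4% of the variance where the other 10 lay between 29.7 and 40.9, and leaving con out of the fit raised the count of calls given below from 2271 to 2947. The 15 epithelial markers summed to 14800 to 14900 CPM (the counts of a gene scaled to a fixed library total) in LSF and 13600 to 14000 in DSF. Alpi alone had 2947 to 3019 CPM in LSF and 1791 and 1852 CPM in DSF. By the test described below, 7 of these markers were higher in LSF and 4 lower, Epcam and Cdh1 among the lower. Their median log2 fold change of LSF over DSF was -0.03. Markers of leukocytes and intraepithelial lymphocytes, which the sort should remove, summed to 630 to 636 CPM in LSF and 620 to 642 in DSF. 

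Of 14300 genes tested with edgeR's quasi-likelihood test, 2271 (15.9%) passed a Benjamini-Hochberg adjusted p of 0.05. Among them 1283 (8.97% of the genes tested) were higher in LSF and 988 (6.91%) were lower, where a fold change is always LSF over DSF. Scaling by library totals alone instead of by trimmed means (TMM) shifted the median gene by -0.06 on the log2 scale and turned this split to 1013 higher and 1651 lower. Most differences were small, with a median size of 0.40 on the log2 scale, and 203 genes differed at least 2-fold, of which 166 were higher in LSF and 37 lower. The DSF group has 2 libraries, and each weighs on the count: without DSF library S2 1288 genes passed and without DSF library S3 1430, where the remaining DSF library was assumed to vary like the other groups. For 6437 genes (45.0%) the LSF and DSF libraries did not overlap. The 12 genes with the largest rise by the naming rule included Cyp2c29, Pck1, Akp3, Cyp3a11 and Sgk1, and the 12 with the largest fall included Gsdmc2, Gsdmc4, Duox2, Nos2 and Reg3g. In each gene list below, the 3 members with the smallest p were named by rule, and any further member was chosen after its values were seen. Genes were counted without a stated strand or rule for shared reads, so values of near-identical copies are uncertain. Of the 30 tested leukocyte markers 1 passed, the immunoglobulin joining chain Jchain (log2 fold change 1.29 ± 0.27, SE).

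**Figure D1:**
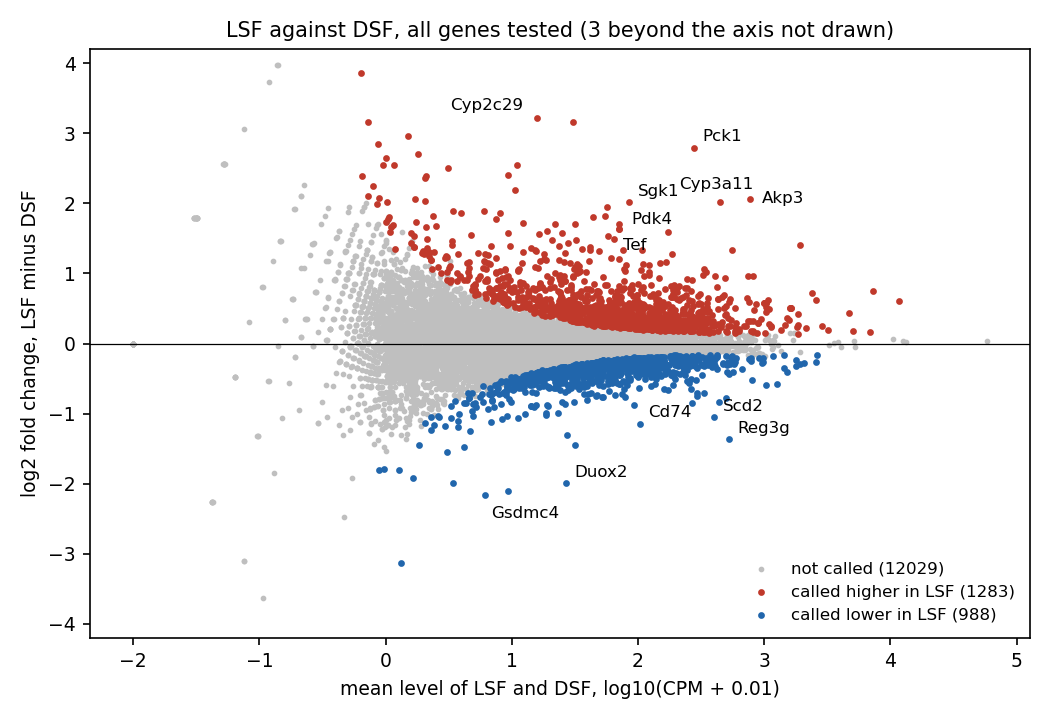
Each point is 1 of the 14300 genes tested, save 3 beyond the axis, with the mean CPM of the LSF and DSF libraries on a log10 axis and the log2 fold change of LSF over DSF on the vertical axis. Red points (1283) passed the test as higher in LSF and blue points (988) as lower, and the largest well-expressed rises, such as Pck1 at 2.80, exceed the largest falls, such as Reg3g at -1.36.

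Genes of glucose production were higher in LSF throughout: 7 of the 7 tested members of the gluconeogenesis list passed the test upward and none downward, with a median log2 fold change of 0.56. Over all genes tested 8.97% passed upward and the median was 0.00. Pck1 encodes the cytosolic phosphoenolpyruvate carboxykinase, the committed step from oxaloacetate towards glucose, and lies at chr2:173153048-173159273 on the plus strand (GRCm38). Its level was 492, 483 and 493 CPM in LSF replicates 1, 2 and 3, and 71.2 and 69.5 CPM in the DSF libraries. All 3 LSF libraries thus stood about 7 times as high as both DSF libraries, without overlap, a log2 difference of 2.80 ± 0.07 (SE) with an adjusted p = 5.76e-37. The means of the other groups were all nearer to DSF, with 57.3 ± 4.0 (SD, n = 2) in BSF, 60.2 ± 3.4 (SD, n = 3) in BSF_C and 15.3 ± 1.2 (SD, n = 3) in con. The promoter of Pck1 is known for a cyclic AMP response element, through which fasting hormones act, and is shown for that reason, with a match to TTACGTCA in capitals. The window is chr2:173152823-173153122, plus strand, 250 bases before to 50 after the start in RefSeq on GRCm38.p6, and the match begins 93 bases before the start.
Pck1: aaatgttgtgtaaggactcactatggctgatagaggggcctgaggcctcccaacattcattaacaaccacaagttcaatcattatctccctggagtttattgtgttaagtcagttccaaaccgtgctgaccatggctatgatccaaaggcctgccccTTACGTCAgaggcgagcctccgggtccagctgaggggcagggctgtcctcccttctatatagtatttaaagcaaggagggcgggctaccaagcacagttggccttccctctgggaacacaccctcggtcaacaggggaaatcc
The 8 letters, searched on both strands, occur in 164 (0.499%) of 32851 promoter windows of 300 bases, and among the 6 gluconeogenesis genes with a window in that of Pck1 alone. A match describes the letters and is not a measured site.

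Fbp1, fructose-1,6-bisphosphatase, followed Pck1, with 18.8, 25.6 and 29.5 CPM in LSF against 7.16 and 9.37 in DSF. The lowest LSF library stood at 2 times the highest DSF library, and the log2 fold change was 1.57 ± 0.18 (adjusted p = 4.71e-10). G6pc, the glucose-6-phosphatase that releases free glucose, was higher by 0.56 ± 0.07, its transporter Slc37a4 by 0.50 ± 0.07, and Slc2a2, the basolateral glucose carrier GLUT2, by 0.65 ± 0.06. Pcx, pyruvate carboxylase, passed by the smallest margin (0.26 ± 0.08, adjusted p = 0.016) and did not pass with either DSF library left out. In glycolysis, 3 of 18 tested members were higher and none lower, with a median of -0.01, and 3 were lower with library totals alone. Among the higher ones were Pfkfb4, a regulator of glycolytic flux (0.33 ± 0.06), and the pyruvate kinase Pkm (0.24 ± 0.06).

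Regulators of the fasted state moved with these enzymes. Of 19 tested members of the insulin, FOXO and fasting list 9 were higher and 1 lower, with a median of 0.19. Klf15, a transcription factor that rises in fasting and with glucocorticoids, had 18.6, 18.5 and 19.8 CPM in LSF and 4.29 and 7.26 CPM in DSF. It was thus at least 2 times as high in each LSF library as in any DSF library (1.71 ± 0.20, adjusted p = 8.43e-10). Creb3l3, a membrane-bound factor of hepatic and gut fasting, was higher by 0.75 ± 0.06, Cited2 by 0.68 ± 0.08, and Irs2, an insulin receptor substrate that FOXO factors induce, by 0.56 ± 0.08. Sesn1, a stress-induced restraint on mTORC1 that FOXO factors also induce, was the member that was lower (-0.53).

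Fatty acid oxidation genes were higher in LSF in 21 of 39 tested members and lower in none, with a median of 0.28. Pdk4, a kinase that shuts pyruvate out of the mitochondrial oxidation route, had 107, 111 and 106 CPM in LSF and 37.3 and 28.9 CPM in DSF. The DSF libraries lay well below, and the log2 fold change was 1.70 ± 0.10 (adjusted p = 9.65e-21). Acot1, a cytosolic acyl-CoA thioesterase and PPARA target, was higher by 1.80 ± 0.10, and its close paralog Acot2 by 1.16 ± 0.14. Peroxisomal and mitochondrial steps were higher too: Acaa2 by 1.15, Ehhadh by 0.46, Acadl by 0.69 and the carnitine carrier Slc25a20 by 0.56. Ppara itself was higher by 0.39 ± 0.10 (adjusted p = 0.0037), and not past the threshold without DSF library S2. Cpt1a, which loads fatty acids onto carnitine, did not pass, with 250, 252 and 245 CPM in LSF and 241 and 242 CPM in DSF (0.04 ± 0.06, adjusted p = 0.71).

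The list of glucocorticoid receptor targets, which also holds the receptor gene, had 8 of 14 tested members higher and none lower, with a median of 0.30. Sgk1, a kinase that acts on sodium channels and carriers, led them, with 134, 137 and 141 CPM in LSF and 32.7 and 35.2 CPM in DSF. The levels differed 4-fold without overlap (2.02 ± 0.09, adjusted p = 5.69e-26), and LSF also stood above the means of BSF, 52.4 ± 4.4 (SD, n = 2), BSF_C, 59.9 ± 3.1 (SD, n = 3), and con, 14.1 ± 1.6 (SD, n = 3). Fkbp5, a co-chaperone of the receptor that the receptor induces, had 57.8, 58.7 and 64.2 CPM in LSF and 23.2 and 24.5 CPM in DSF. Here too every LSF library was more than 2 times as high (1.34 ± 0.11, adjusted p = 6.44e-15). The metallothionein Mt2 was higher by 1.60 ± 0.16, Mt1 by 0.64 ± 0.15, and Tsc22d3, the leucine zipper protein GILZ, by 0.34 ± 0.07. Klf9 (0.01), Ddit4 (-0.08), Zbtb16 (0.26) and Dusp1 (0.20) were among the members that did not pass. The receptor gene Nr3c1 had 174 to 187 CPM in LSF and 176 and 181 CPM in DSF, and the groups overlapped (0.01 ± 0.07, adjusted p = 0.977).

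**Figure D2:**
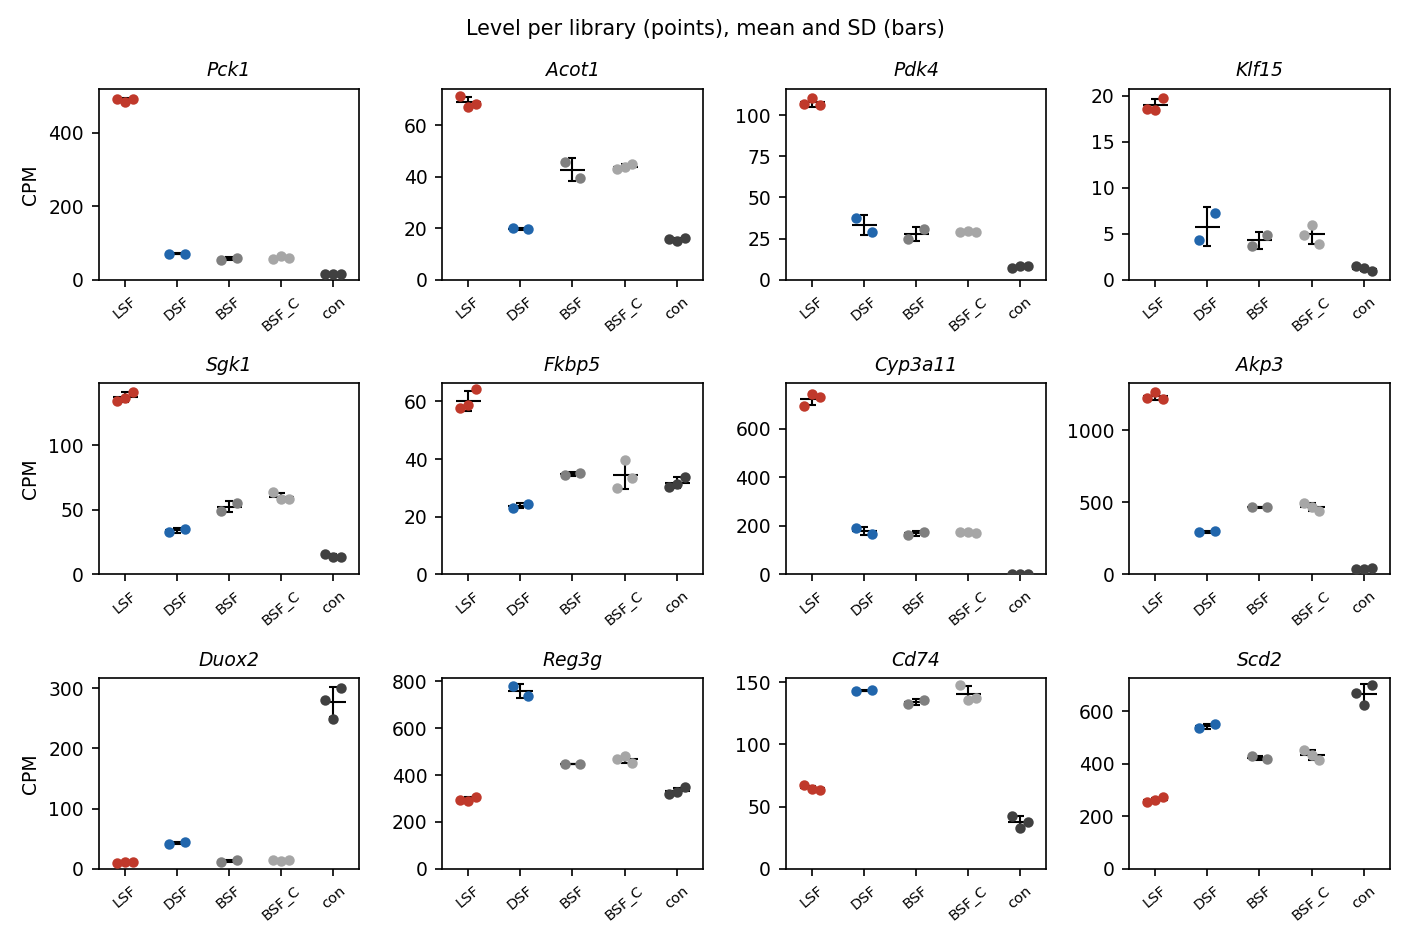
CPM per library for 12 genes, with LSF in red, DSF in blue and BSF, BSF_C and con in greys. Points are libraries, dashes and bars are means and SD. Pck1, Acot1, Pdk4, Klf15, Sgk1, Fkbp5, Cyp3a11 and Akp3 stand higher in LSF than in DSF, and Duox2, Reg3g, Cd74 and Scd2 lower. No gene of the 12 overlaps between the groups, which the naming rule required of the largest rises and falls among them.

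The digestive surface was higher in LSF across sugars and proteins. Of the disaccharidases and sugar carriers, 14 of 16 tested members were higher and none lower, with a median of 0.55, and the summed level was 6946 to 7002 CPM in LSF against 5104 and 5117 in DSF. Slc2a5, the fructose carrier GLUT5, had 109, 106 and 117 CPM in LSF and 49.3 and 52.5 CPM in DSF. It was the member with the smallest p (1.12 ± 0.09, adjusted p = 1.35e-15) and every LSF library exceeded 2 times the DSF level. Trehalase, Treh, was higher by 0.67 ± 0.07, maltase-glucoamylase, Mgam, by 0.59 ± 0.06, sucrase-isomaltase, Sis, by 0.43 ± 0.06, and lactase, Lct, by 0.37 ± 0.06. Slc5a1, the sodium-glucose carrier SGLT1, stood at 1217 to 1241 CPM in LSF and 850 and 861 in DSF (0.52 ± 0.05, adjusted p = 3.84e-11).

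Brush border peptidases were higher in 13 of 15 tested members and lower in none, with a median of 0.55. Ace, angiotensin-converting enzyme, had 1002, 1001 and 977 CPM in LSF and 514 and 504 CPM in DSF, close to 2-fold (0.96 ± 0.06, adjusted p = 6.08e-19). Neprilysin, Mme, was higher by 0.94 ± 0.07. Among amino acid and peptide carriers, 12 of 17 tested members were higher and 1 lower, with a median of 0.40. The proline carrier Slc6a20a led with 455, 446 and 443 CPM in LSF and 197 and 230 CPM in DSF (1.07 ± 0.07, adjusted p = 2.26e-19). Slc6a19, the main carrier of neutral amino acids, was higher by 0.80 ± 0.06 and the peptide carrier Slc15a1 by 0.85. The exception was Slc1a5, a glutamine carrier (-0.31).

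Fat absorption followed. Lipid uptake and triglyceride synthesis had 12 of 17 tested members higher and none lower, with a median of 0.25, though 6 without DSF library S2. Slc27a2, an acyl-CoA synthetase and fatty acid transporter, had 168, 166 and 161 CPM in LSF and 83.5 and 78.5 CPM in DSF, so that the groups lay about 2-fold apart (1.03 ± 0.08, adjusted p = 2.13e-15). Dgat2, which makes triglyceride, was higher by 0.83 ± 0.07 and the intestinal fatty acid binding protein Fabp2 by 0.52 ± 0.07. Chylomicron assembly had 8 of 12 tested members higher and none lower, with a median of 0.27, though 5 without DSF library S3. Apoa4, the member with the highest CPM, had 14420, 14240 and 14010 CPM in LSF and 9475 and 9286 CPM in DSF. The groups did not overlap (0.60 ± 0.05, adjusted p = 1.51e-14), and BSF, with a mean of 14030 ± 23.4 CPM (SD, n = 2), was at the LSF level. Apoa1 was higher by 0.76 ± 0.05 and Apob, the scaffold of the particle, by 0.62 ± 0.05. In cholesterol handling, 6 of 13 tested members were higher and none lower, and 3 passed with library totals alone, without LSF replicate 1 or without LSF replicate 3. The sterol exporters Abcg5 and Abcg8 were higher by 0.66 ± 0.07 and 0.71 ± 0.07, and Abca1, which loads high-density lipoprotein, by 1.21 ± 0.16. The cholesterol uptake carrier Npc1l1 (-0.03 ± 0.05) and Scarb1 (0.23 ± 0.22) did not pass.

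Akp3, a duodenal-type alkaline phosphatase of the brush border, was among the 12 largest rises, with 1229, 1265 and 1221 CPM in LSF and 291 and 301 CPM in DSF. The gap was 4-fold (2.06 ± 0.06, adjusted p = 4.17e-33), and the means of BSF, 467 ± 3.7 (SD, n = 2), and BSF_C, 469 ± 28.0 (SD, n = 3), lay between the groups. Its neighbour in function Alpi was higher by 0.72 ± 0.05. Less abundant genes of large rise were Slc16a9, a carnitine carrier (2.55 ± 0.23), Unc93a (2.41 ± 0.25), Slc6a3, known as the dopamine transporter (2.51 ± 0.39), and the receptor Gpr151 (2.19 ± 0.21). In DSF, these 4 were at 0.65 to 4.81 CPM, so few counts stand behind each value, and Slc6a3 stayed below 6 CPM in each LSF library.

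Villus genes and crypt genes moved beside these changes. Of the villus tip list, 12 of 21 tested members were higher and 3 lower, with a median of 0.28 and a sum of 27700 to 28270 CPM in LSF against 18990 and 19290 CPM in DSF. Most of this sum came from Apoa1 and Apoa4, described above with the chylomicron genes, and without these 2 it was 4657 to 4700 CPM in LSF and 4368 and 4371 CPM in DSF, a ratio of 1.07 in place of 1.46. Enpp3, a nucleotide phosphodiesterase of the villus, was higher by 1.49 ± 0.10, while Ubd (-0.90), Ceacam1 (-0.37) and Cdh1 (-0.25) were lower. Of 42 tested proliferation genes, 26 were lower in LSF and none higher, with a median of -0.36, and 12 were lower without DSF library S2. Their sum was 2143 to 2192 CPM in LSF and 2724 and 2801 CPM in DSF. Ccna2, cyclin A2, had 82.1, 83.3 and 83.1 CPM in LSF and 115 and 116 CPM in DSF. The LSF libraries lay close together below DSF (-0.48 ± 0.07, adjusted p = 2.55e-07). The ubiquitin conjugating enzyme of mitotic exit Ube2c differed by -0.83 ± 0.12, the centromeric histone Cenpa by -0.72 ± 0.11 and Mki67 by -0.38 ± 0.07. In bulk RNA, fewer cells of a type and less RNA per cell cannot be told apart. The part of this villus to crypt difference in the results on metabolism, absorption and defence was not tested.

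Stem cell and Wnt target genes were lower in 8 of 23 tested members and higher in none, with a median of -0.20 and a sum of 2304 to 2320 CPM in LSF against 2853 and 2861 in DSF. The count fell to 4 without DSF library S2, 3 without DSF library S3, 5 without LSF replicate 1 and 4 without LSF replicate 3. Olfm4, an abundant crypt base marker, had 1296, 1303 and 1305 CPM in LSF and 1740 and 1709 CPM in DSF (-0.41 ± 0.05, adjusted p = 1.62e-09). Smoc2 and Prom1 differed by -0.43 ± 0.08 and -0.43 ± 0.09. Lgr5, the defining marker of crypt base stem cells, did not pass (18.5 to 19.6 CPM in LSF, 14.3 and 15.8 CPM in DSF, 0.34 ± 0.14, adjusted p = 0.087). Paneth genes were lower in 5 of 15 tested members and higher in 1, but 1 was lower without DSF library S2, 3 without DSF library S3, and 3, 2 and 3 without LSF replicates 1, 2 and 3. The pentraxin-like Mptx2 differed by -0.65 ± 0.08, and the exception was Guca2b, uroguanylin, which is made by enterocytes as well and was 2.49-fold higher (adjusted p = 4.99e-16). Goblet genes were higher in 4 of 18 tested members, among them the mucus proteins Zg16 (0.57 ± 0.06) and Fcgbp (0.44 ± 0.05), and lower in 1, and 2 were higher without DSF library S2. Of 15 tuft cell genes none passed and of 24 enteroendocrine genes 1 passed, Neurog3, the factor that starts that lineage (-0.63). The pore-forming claudin of the crypt Cldn2 differed by -0.51 ± 0.06 and Epcam, the marker of the sort, by -0.22 ± 0.06 (adjusted p = 0.00587), a call lost without DSF library S2.

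**Figure D3:**
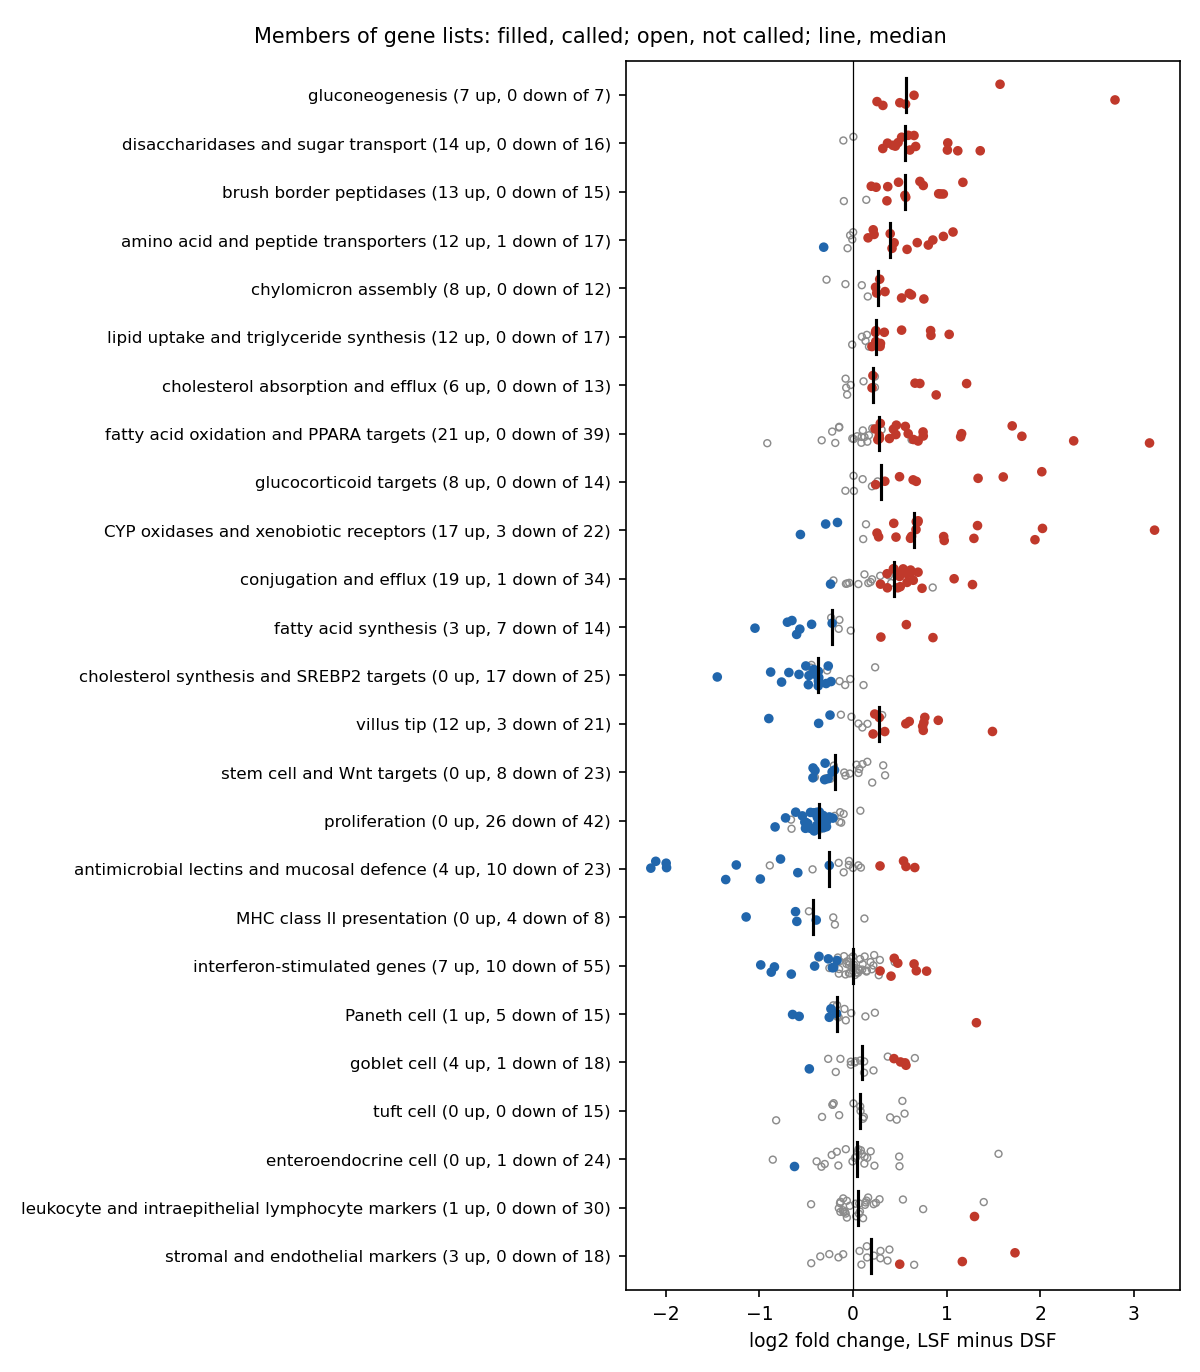
Log2 fold change of LSF over DSF for the tested members of 25 gene lists, 1 row per list. Filled points passed the test (red higher, blue lower in LSF), open points did not, and black lines are list medians, which lie at 0.55 for brush border peptidases and at -0.36 for proliferation.

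Cholesterol synthesis genes were lower in LSF. Of 25 tested genes of cholesterol synthesis and SREBP2 targets 17 were lower and none higher, with a median of -0.37, though 11 were lower without DSF library S2. Cyp51, the lanosterol demethylase, had 55.0, 64.5 and 56.3 CPM in LSF and 101 and 98.2 CPM in DSF, without overlap (-0.76 ± 0.08, adjusted p = 1.11e-11). Along the pathway, Hmgcs1 differed by -0.48 ± 0.07, Mvd by -0.88, Fdps by -0.68 and Sqle by -0.58 ± 0.09. The factor Srebf2 differed by -0.29 ± 0.07. The promoter of Hmgcs1, cytosolic HMG-CoA synthase, is shown because SREBP2 is known to act through sterol regulatory elements in such promoters. Capitals mark a match to TCACNCCAC, searched on both strands, that begins 137 bases before the RefSeq start, in the window chr13:119690101-119690400 on the plus strand of GRCm38.p6.
Hmgcs1: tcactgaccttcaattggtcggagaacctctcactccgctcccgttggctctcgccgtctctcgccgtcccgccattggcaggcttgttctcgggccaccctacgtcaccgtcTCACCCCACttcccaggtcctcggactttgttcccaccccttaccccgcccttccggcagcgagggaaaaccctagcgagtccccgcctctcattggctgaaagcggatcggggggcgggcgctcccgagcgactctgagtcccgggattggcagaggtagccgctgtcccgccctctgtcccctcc
These letters occur in 408 (1.24%) of the 32851 windows, and in 1 of the 17 cholesterol genes that have a window.

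In fatty acid synthesis, 7 of 14 tested members were lower and 3 higher, with a median of -0.23. Scd2, a stearoyl-CoA desaturase, had 255, 262 and 271 CPM in LSF and 536 and 549 CPM in DSF. On average LSF stood more than 2-fold below DSF (-1.05 ± 0.06, adjusted p = 1.86e-21), and con was the highest group at 665 ± 38.1 (SD, n = 3). Fasn, fatty acid synthase, differed by -0.70 ± 0.07 and the elongase Elovl6 by -0.65 ± 0.06, and the desaturases Fads1 and Fads2 by -0.60 and -0.57. The 3 higher members were Scd1 (0.85 ± 0.14), the malic enzyme Me1 (0.57) and the factor Srebf1 (0.30 ± 0.07). The 2 desaturase paralogs thus differed in opposite directions, with Scd1 at 31.0 to 33.4 CPM in LSF and 17.0 and 18.2 CPM in DSF.

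Drug and steroid oxidation genes were higher in LSF. Of 22 tested cytochrome P450 genes and xenobiotic receptors 17 were higher and 3 lower, with a median of 0.65. Cyp3a11, the main mouse drug-oxidising CYP3A enzyme and a target of the receptors PXR and CAR, had 694, 743 and 732 CPM in LSF and 188 and 167 CPM in DSF. The gap was 4-fold (2.02 ± 0.07, adjusted p = 4.53e-32), and BSF, 168 ± 8.6 (SD, n = 2), and BSF_C, 172 ± 2.4 (SD, n = 3), were at the DSF level. Cyp27a1, the sterol 27-hydroxylase that starts the alternative route of bile acid synthesis, had 88.7, 95.1 and 87.6 CPM in LSF and 23.6 and 23.5 CPM in DSF. It too was about 4-fold higher (1.94 ± 0.10, adjusted p = 1.52e-22). Cyp2c29 had the largest fold change of the named genes, from 2.86 and 3.30 CPM in DSF to 28.7, 28.7 and 29.1 CPM in LSF (3.22 ± 0.21, adjusted p = 1.11e-18). Cyp2j6, which makes epoxides of arachidonic acid, was higher by 1.33 ± 0.08 and Cyp2b10, a CAR target, by 0.68 ± 0.07. Cyp2u1 (-0.56), Cyp4f40 (-0.29) and the factor Hnf4a (-0.17) were the members that were lower. CYP2C and CYP3A genes have close paralogs, and reads may be shared among them.

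Conjugation and efflux genes were higher in 19 of 34 tested members and lower in 1, with a median of 0.43. Gstm1, a glutathione transferase, was higher by 0.74 ± 0.07, the carboxylesterases Ces2a and Ces2c by 0.64 and 0.61, and the exporter Abcc2 by 0.43 ± 0.07. The Ugt1a genes share exons, so that Ugt1a1 (0.58 ± 0.05), Ugt1a6a (0.58 ± 0.05) and Ugt1a7c (0.50 ± 0.05) are not independent values. Of the AHR pathway, 3 of 10 tested members were higher and none lower. Cyp1a1, its defining target, had 69.3, 77.5 and 69.0 CPM in LSF and 48.1 and 47.9 CPM in DSF (0.58 ± 0.09, adjusted p = 4.18e-07), while the other 2 were Ugt1a6a and Ugt1a6b. In BSF the mean of Cyp1a1 was 247 ± 14.7 CPM (SD, n = 2), above both groups.

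Handling of vitamins and metals was higher in part. Retinoid metabolism had 6 of 15 tested members higher and none lower, among them Aldh1a1, which makes retinoic acid (0.82 ± 0.06), Retsat (0.93 ± 0.07) and Rdh7 (0.79 ± 0.07). Iron and haem handling had 6 of 12 higher and 1 lower. Flvcr1, a haem exporter that also carries choline, had 139, 154 and 160 CPM in LSF and 67.4 and 69.4 CPM in DSF, 2-fold without overlap (1.14 ± 0.08, adjusted p = 3.13e-18). The proton-coupled folate and haem carrier Slc46a1 was higher by 0.79 ± 0.07, and Epas1, the hypoxia factor that drives iron uptake genes, by 0.95 ± 0.10. Zinc carriers and metallothioneins had 6 of 11 higher and none lower, led by Mt2. Cubn, the cobalamin receptor of the distal gut, had 35.7, 38.9 and 38.1 CPM in LSF and 15.2 and 10.0 CPM in DSF (1.57 ± 0.15, adjusted p = 1.24e-12). Markers of the proximal small intestine were higher in 8 of 16 and lower in 2, and those of the distal small intestine higher in 6 of 15 and lower in 1. A difference in position along the gut was not tested.

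Among clock genes, nuclear receptors, repressors and output factors passed the test, and the core activators did not. Arntl, which encodes BMAL1, had 29.7, 31.1 and 29.4 CPM in LSF and 28.9 and 30.7 CPM in DSF. The groups overlapped (0.01 ± 0.11, adjusted p = 0.969), and Clock (0.08 ± 0.07, adjusted p = 0.514) and Npas2 (0.14 ± 0.10, adjusted p = 0.4) did not pass either. The receptors that act on Arntl were higher in LSF: Nr1d1, REV-ERB alpha, had 103, 94.3 and 95.8 CPM in LSF and 54.0 and 58.7 CPM in DSF. No LSF library came near DSF (0.79 ± 0.08, adjusted p = 5.1e-11), and the mean of con was 84.1 ± 7.0 (SD, n = 3) and that of BSF 46.2 ± 1.7 (SD, n = 2). Nr1d2 was higher by 0.96 ± 0.14.

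Of 8 tested repressors, 3 were higher in LSF and 1 lower. Cry2 had 32.4, 35.8 and 34.7 CPM in LSF and 17.0 and 19.9 CPM in DSF (0.89 ± 0.13, adjusted p = 1.47e-07). Per1 had 30.3, 31.5 and 28.3 CPM in LSF and 18.6 and 19.0 CPM in DSF (0.68 ± 0.12, adjusted p = 3.13e-05), and Per2 was higher by 0.53 ± 0.09. No overlap between groups held for 7 of the 8 repressors, members that did not pass among them, and for 45.0% of all genes tested. Per1 is also a glucocorticoid target and counts in both lists. Bhlhe40 was the lower member (-0.19 ± 0.06, adjusted p = 0.0309) and did not pass with either DSF library left out. Cry1 (-0.26 ± 0.11, adjusted p = 0.11), Per3 (0.49 ± 0.20, adjusted p = 0.0852) and Ciart (0.78 ± 0.47, adjusted p = 0.303) did not pass. Among output factors, 4 of 11 tested members were higher and 1, Klf10, lower (-0.30 ± 0.08). Tef had 90.7, 84.4 and 79.7 CPM in LSF and 36.4 and 36.6 CPM in DSF, more than 2-fold apart (1.22 ± 0.09, adjusted p = 2.8e-16), and its relative Hlf differed by 1.39 ± 0.23. The other relative, Dbp, had 10.7, 11.2 and 13.02 CPM in LSF and 8.20 and 8.05 CPM in DSF, and lay at the threshold (0.52 ± 0.19, adjusted p = 0.052). It passed in 4 of the 14 other settings, with adjusted p of 0.0221 when only the LSF and DSF libraries were fitted.

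ARNTL and CLOCK bind the E-box CACGTG, and 2 promoters of clock genes that differed are shown for their match, in capitals and searched on both strands, with windows from RefSeq on GRCm38.p6. That of Tef is chr15:81802423-81802722, plus strand, with the match beginning 127 bases before the start. That of Per1 is chr11:69098699-69098998, plus strand, with the match 166 bases before the start. This start lies inside the annotated Per1 gene, downstream of the gene start at chr11:69095217. Each window shown was the gene's first that held a match, and any without a match was passed over.
Tef: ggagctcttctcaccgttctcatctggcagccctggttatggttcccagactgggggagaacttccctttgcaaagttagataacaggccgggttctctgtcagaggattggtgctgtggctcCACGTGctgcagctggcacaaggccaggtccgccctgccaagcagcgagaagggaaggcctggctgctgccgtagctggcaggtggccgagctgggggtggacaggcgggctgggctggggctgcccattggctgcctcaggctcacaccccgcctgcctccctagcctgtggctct
Per1: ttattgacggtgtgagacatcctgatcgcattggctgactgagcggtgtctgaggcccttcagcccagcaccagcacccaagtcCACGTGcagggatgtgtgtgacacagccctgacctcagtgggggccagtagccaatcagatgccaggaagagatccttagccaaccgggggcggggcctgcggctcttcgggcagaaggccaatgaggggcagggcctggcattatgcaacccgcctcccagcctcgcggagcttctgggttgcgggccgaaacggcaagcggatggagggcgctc
The E-box occurs in 7.15% of the 32851 windows, and of the 21 clock genes with a window 5 had it, namely Tef, Per1, Cry1, Ciart and Bhlhe41. Of these 5, Tef and Per1 passed the test.

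**Figure D4:**
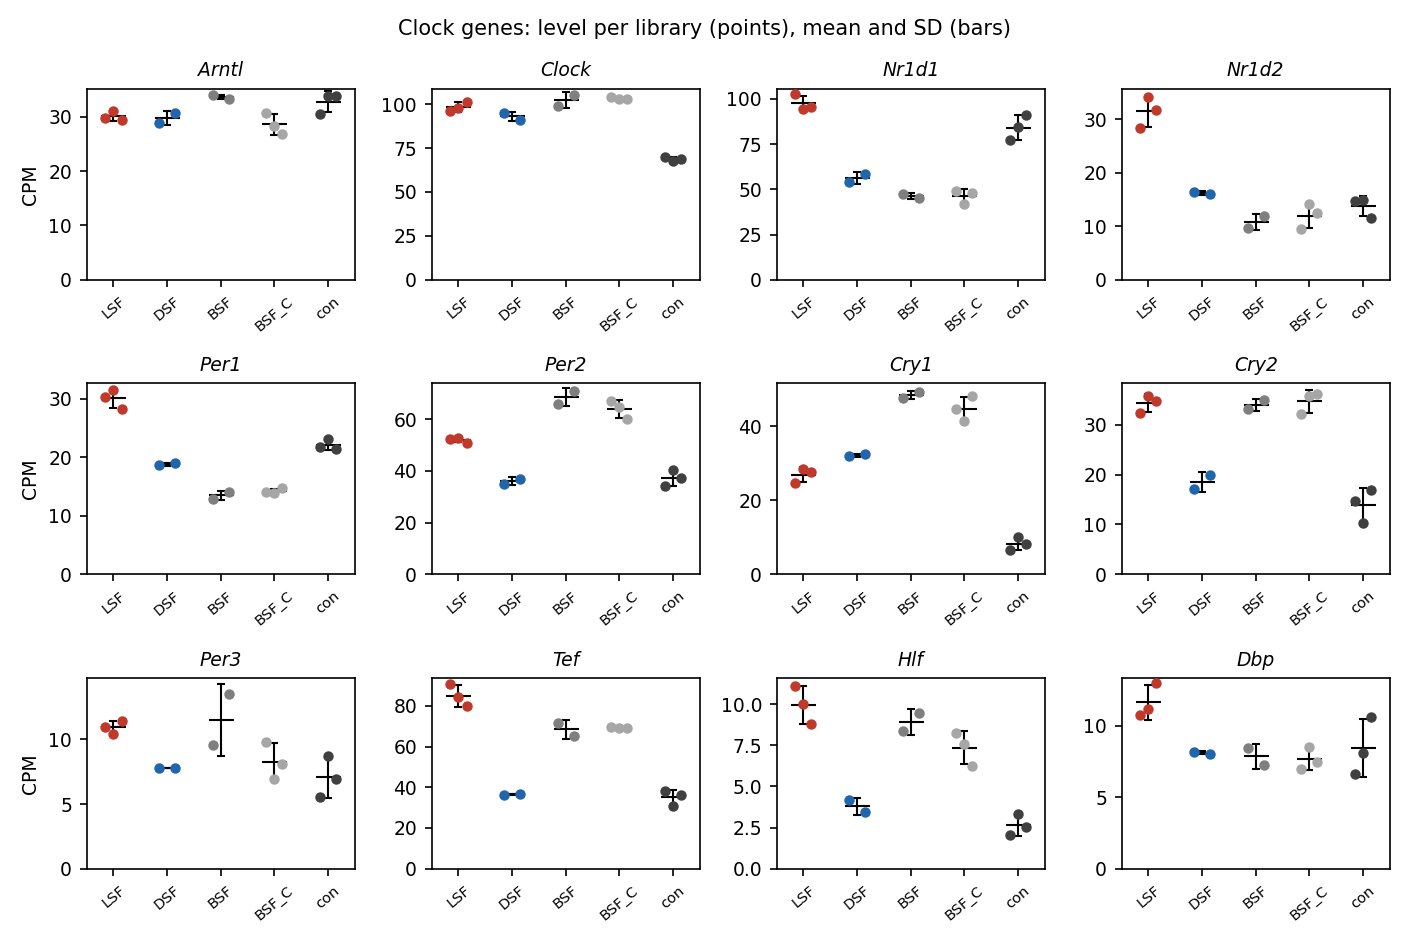
CPM per library for 12 clock genes in the 5 groups, with points for libraries and dashes and bars for means and SD. Arntl and Clock lie at like levels in LSF and DSF, while Nr1d1, Nr1d2, Per1, Per2, Cry2, Tef and Hlf stand higher in LSF.

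Mucosal defence genes made up the 4 largest falls among the genes named by rule. Of 23 tested members of the antimicrobial and mucosal defence list 10 were lower in LSF and 4 higher, with a median of -0.25. Duox2, the dual oxidase that makes hydrogen peroxide at the mucosal surface, had 9.17, 11.4 and 11.6 CPM in LSF and 41.1 and 44.2 CPM in DSF. The groups lay 4-fold apart (-1.995 ± 0.12, adjusted p = 2.4e-19), and BSF, at 13.02 ± 2.23 (SD, n = 2), and BSF_C, at 14.0 ± 1.5 (SD, n = 3), were by the LSF level while con, at 277 ± 25.5 (SD, n = 3), was far above. Its maturation factor Duoxa2 differed by -1.25 ± 0.27 and Nos2, the inducible nitric oxide synthase, by -1.99 ± 0.32, at no more than 1.45 CPM in any LSF library. Reg3g, a lectin that kills Gram-positive bacteria, had 293, 288 and 308 CPM in LSF and 781 and 739 CPM in DSF. DSF was the highest of the 5 groups, with 447 ± 0.43 in BSF (SD, n = 2), 467 ± 16.3 in BSF_C (SD, n = 3) and 332 ± 13.8 in con (SD, n = 3), and the log2 fold change was -1.36 ± 0.06 (adjusted p = 3.97e-27). Its close paralog Reg3b differed by -0.77 ± 0.06. The related lectins Reg1 (0.54) and Reg3a (0.66) were among the 4 higher members. The gasdermins Gsdmc2 and Gsdmc4, near-identical copies that can share reads, had 1.80 to 2.78 and 2.06 to 4.47 CPM in LSF and 7.92 to 12.2 and 13.5 to 16.9 CPM in DSF (-2.16 ± 0.26 and -2.11 ± 0.22).

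Antigen presentation by MHC class II was lower in LSF in 4 of 8 tested members and higher in none, with a median of -0.43 and a sum of 176 to 179 CPM in LSF and 286 in both DSF libraries. Cd74, the invariant chain, had 67.1, 64.1 and 63.5 CPM in LSF and 143 and 144 CPM in DSF. LSF stood more than 2-fold below DSF (-1.14 ± 0.07, adjusted p = 5.02e-19). The chain genes H2-Aa and H2-Eb1 differed by -0.60 ± 0.14 and -0.61 ± 0.16, the latter not passing without DSF library S3, and Ciita, the master regulator, did not pass (-0.19). The leukocyte gene Ptprc, which encodes CD45, did not pass either (17.6 to 20.1 CPM in LSF, 16.5 and 19.1 CPM in DSF, 0.07 ± 0.15, adjusted p = 0.84). MHC class I genes and the immunoproteasome had 2 of 24 tested members higher and 3 lower, among them the paralogs H2-Q2 (0.48 ± 0.06) and H2-Q10 (-0.90 ± 0.16). The shares across all genes tested were 8.97% higher and 6.91% lower.

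Interferon-stimulated genes were divided, with 7 of 55 tested members higher and 10 lower and a median of 0.00, and 4 were lower without DSF library S2. For comparison, 8.97% of all genes tested were higher and 6.91% lower. Ifit1, which binds viral RNA, had 84.3, 77.2 and 83.1 CPM in LSF and 52.7 and 49.4 CPM in DSF (0.68 ± 0.09, adjusted p = 1.73e-08). Ifit3 (0.48) and Ddx60 (0.79) were higher as well. Ifi44 had 13.6, 12.2 and 11.7 CPM in LSF and 23.4 and 26.3 CPM in DSF (-0.99 ± 0.14, adjusted p = 3.15e-07). The membrane proteins Ifitm3 (-0.84 ± 0.13) and Bst2 (-0.87 ± 0.14) and the ubiquitin-like Isg15 (-0.41 ± 0.10) were lower, Isg15 not past the threshold without DSF library S2. Of 23 chemokines and lymphocyte ligands, 6 were higher and 2 lower, and 2 were higher without DSF library S2. Cxcl16 was higher by 0.87 ± 0.15 and Il15, which supports intraepithelial lymphocytes, by 0.73 ± 0.13, while Ccl28 differed by -0.35 ± 0.08.

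Chaperones and protein turnover were divided too. Of 23 tested genes of the unfolded protein response, 8 were lower and 4 higher, and 2 were higher without DSF library S2. The folding enzymes of the endoplasmic reticulum Calr (-0.52 ± 0.05) and Pdia6 (-0.73 ± 0.10) were lower, while Herpud1 (0.66 ± 0.09) and Dnajb9 (0.61), of the degradation branch, were higher. The central chaperone of that compartment, Hspa5, did not pass (-0.06 ± 0.05, adjusted p = 0.52). Of 24 genes of the heat shock list, 8 were lower and 5 higher, and fewer were lower without DSF library S2. The higher ones were Hspa1b (0.61), Hspa8 (0.42) and Dnaja1 (0.27), and also Cirbp and Rbm3, which are not heat shock genes. Cirbp and Rbm3 encode cold-inducible RNA binding proteins, known to follow body temperature rhythms. Cirbp had 58.1, 56.7 and 54.4 CPM in LSF and 25.2 and 24.5 CPM in DSF, more than 2-fold (1.18 ± 0.10, adjusted p = 1.79e-13), and Rbm3 was higher by 0.67 ± 0.09. The HSP90 genes Hsp90aa1 (-0.31) and Hsp90ab1 (-0.32) and their co-chaperones Stip1 (-0.44) and Fkbp4 (-0.46) were lower. Of 33 proteasome subunits 9 were lower and 1 higher, with 3 lower without DSF library S2, 5 without DSF library S3 and 5 without LSF replicate 1.

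Of 33 tested translation factors 8 were lower in LSF and 3 higher, with a median of -0.12. Eif5a, which helps the ribosome through difficult peptides, differed by -0.29 ± 0.06, Eef1g, of the elongation complex, by -0.28 ± 0.06 and Eif3c, of the initiation complex, by -0.28 ± 0.07. The count of lower members was 3 without DSF library S2, 5 without DSF library S3 and 5, 5 and 4 without LSF replicates 1, 2 and 3, and none was higher without DSF library S3. Cytosolic ribosomal proteins had 1 of 84 tested members higher and 4 lower, 14 with library totals alone and 2 without DSF library S2, with a median of -0.05. Nuclear-encoded respiratory chain genes had 1 of 74 higher and 3 lower, and ribosome biogenesis 0 of 34 higher and 3 lower. Across all genes tested 8.97% were higher and 6.91% lower, and the counts of these lists lie near or below those shares. In the list of ATF4 targets, 1 of 21 was higher, Trib3 (0.95 ± 0.21), and 2 were lower, Shmt2 (-0.58 ± 0.08) and Nars (-0.39 ± 0.06). Among immediate early genes, which respond to growth factors and to tissue handling, 8 of 30 were higher and 2 lower, with Klf4 at 0.56 ± 0.07 and Zfp36 at 0.49 ± 0.06.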

How the data were processed

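Poly(A) RNA of sorted jejunal epithelial cells was sequenced in 13 libraries, 1 table of raw counts per gene was deposited by the authors, and the 5 LSF and DSF columns were matched to the labels by group name. FastQC 0.11.8, cutadapt 2.9, STAR 2.7.2e, DESeq2 1.32.0 and the builds GRCm38 and mm10 are named in the submitters' processing notes; strand, annotation and the rule for shared reads are not given in the sources used here. The labels number the DSF replicates otherwise than the columns, so DSF libraries are called S2 and S3 as in the columns. From the deposited counts, genes were filtered with filterByExpr (14300 kept, 99.91% of counts), scaled by TMM and tested with edgeR 4.0.16 (R 4.3.3) by the quasi-likelihood test in 1 fit over all 13 libraries (8 residual degrees of freedom, median biological coefficient of variation 6.16%), with Benjamini-Hochberg adjustment over all genes. CPM values use the scaled library sizes, and the SE is the log2 fold change divided by the square root of the F statistic. Libraries of 1 group differed more than counting noise (chi-square per degree of freedom 1.38 to 1.73), so none was a copy of another.

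Genes were named by rule: the 12 largest rises and falls among called genes with at least 5 CPM and no overlap, the 3 smallest p-values of each list with 3 calls, and a few set genes such as Arntl and Pck1; some of them are not reported here. Gene lists and the comparison were chosen with earlier results of these data known. Of 21868 symbols 21689 (99.2%) matched the GENCODE M21 annotation, which gave gene positions. The script was tested on simulated data. Alternatives were DESeq2 1.42.0, limma 3.58.1 (voom), other scaling, no filter, other sets of libraries, a replicate block, GC and length trends removed, and each library left out.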

Additional observations from a re-analysis of the deposited data

How the results depend on the processing

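In 14 other settings, no gene called in the analysis above was called in the opposite direction, and 914 of its 2271 calls were made in every setting. Of 190 called genes named in the analyses, 156 kept their call in every setting that tested them and none reversed. With 1 library left out, the count of calls ran from 1288 to 1866, of higher calls from 808 to 1110 and of lower calls from 480 to 756; fewer libraries enter those fits. Library totals alone gave 1651 lower calls. Other tools gave 1874 (DESeq2) and 2287 (limma-voom) calls, and the LSF and DSF libraries alone 3082. Genes that had not passed changed sign: Arntl to -0.047 with totals alone and to -0.013 without LSF replicate 2, within a range of -0.033 to 0.055 over libraries left out; Cpt1a to -0.015 and Nr3c1 to -0.054 with totals alone; Nr3c1 to -0.022 with GC and length trends removed and to -0.016 without DSF library S3, within -0.024 to 0.026 over libraries left out; Ptprc to -0.036 without DSF library S2, within a range up to 0.173. The cause was not tested.

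The number in the column names as a replicate block gave 2060 calls (1189 higher, 871 lower), with 87.9% of the calls above made in the same direction. The difference of S2 and S3 in LSF did not follow that in DSF over 9255 genes (r = -0.00021, a description across genes). The DSF numbers differ from those of the labels, so whether libraries of like number belong together is not known. The depth of 7339563 to 8385260 counts limits genes of a few CPM most.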

Other observations

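Erythroid genes differed between the groups although the sort selects epithelial cells. The 6 haemoglobin and related genes summed to 26.7 to 30.6 CPM in LSF and 10.6 to 12.9 CPM in DSF, and 2 of the 3 tested were called. Hba-a1 had 19.9, 22.4 and 24.1 CPM in LSF and 9.63 and 7.79 CPM in DSF (log2 fold change 1.34 ± 0.17, adjusted p = 2.59e-08 by edgeR's quasi-likelihood test), and its mean was 4.07 CPM in BSF and 0 in con. Stromal and endothelial markers summed to 211 to 242 CPM in LSF and 185 to 203 CPM in DSF, with 3 of 18 tested members higher, and the collagen gene Col1a2 overlapped between groups and was not called in 5 of the 14 other settings, among them that without DSF library S3. Pancreatic acinar genes summed to 221 to 225 CPM in LSF and 154 to 169 CPM in DSF, nearly all from Reg1, which the jejunum also expresses, and 9 of the 17, among them Prss1, Cpa1 and Pnlip, had no count in the 5 libraries. Hepatocyte genes summed to 8.64 to 9.25 CPM in LSF and 12 to 12.7 CPM in DSF, with Alb at 0. The part of such RNA in the results was not tested.

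Antioxidant genes of the NRF2 list were divided, with 5 of 21 tested members higher in LSF and 5 lower. For this list and the autophagy list below, the shares across all genes tested were 8.97% higher and 6.91% lower. Cbr3, a carbonyl reductase, had 11.5, 8.22 and 8.90 CPM in LSF and 2.08 and 3.04 CPM in DSF (1.90 ± 0.28, adjusted p = 5.07e-07). Gpx2, the glutathione peroxidase of the crypt, had 198, 195 and 180 CPM in LSF and 356 and 336 CPM in DSF (-0.85 ± 0.07, adjusted p = 2.05e-15). Without DSF library S3, 3 members were higher and 3 lower, and 3 were lower without DSF library S2 or LSF replicate 2. Autophagy genes were called higher in 4 of 31 tested members (Bnip3l, Optn, Atg12 and Sqstm1), in 10 when only the LSF and DSF libraries were fitted and in 0 with either DSF library left out.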
